A study of Drosophila melanogaster with 15 samples.

Results

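The genes described here are the 132 whose RNA was lower at each successive age in preparations of photoreceptor nuclei of Drosophila melanogaster. The deposited filtered table held 7635 genes. The 132 were chosen by a rule on the age means themselves. Each library's log2(CPM+1) values, where CPM is the count scaled to a common library total, were centred on the library's median over genes and averaged per age. A gene was kept if its mean CPM was at least 10, if each age lay below the age before it, and if day 30 and day 40 lay at least 0.3 and 0.6 log2 units below day 10. Of 5791 genes with a mean CPM of at least 10, 301 stepped down at each age, 210 of these also met the day 30 limit and 132 met both limits. The age differences of these genes are therefore a description of what the rule selected, and no test of them is given. The mirrored rule, for genes rising at each age, kept 110 genes.

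Outer photoreceptors, R1 to R6, detect light through the rhodopsin Rh1 and pass the signal to neurons of the optic lobe by releasing histamine from synaptic vesicles. Keeping that signal fast takes ion channels and pumps, a vesicle release machinery, adhesion molecules that hold the axon terminal to its partners, and a large cytoskeleton. Nuclear RNA holds newly made and unspliced transcripts along with mature ones, so its level follows transcription more closely than that of cytoplasmic RNA does.

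All flies were males of 1 genotype (w;; UAS-GFP-Msp300KASH attP2, rh1-GAL4, ry506) kept at 25 °C in a 12:12 light and dark cycle and harvested at 10, 20, 25, 30 or 40 days. No group carried another allele or received a treatment, so that age was the variable between groups. The rh1-GAL4 driver places a green fluorescent protein on the nuclear envelope of R1 to R6, and the study's methods describe pulling these nuclei with an antibody from the pooled, homogenised heads of many flies a sample, so each library is a pool of animals and any driver activity outside the eye enters it. There were 3 biological replicates an age, with 14 libraries used, since day 30 replicate 3 was set aside in the study because its reads mapped poorly.

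Gene counts totalled between 6213255 and 19819118 in the 14 libraries and 518520 in the discarded one. Photoreceptor transcripts taken as markers of R1 to R6 (ninaE, trp, norpA, inaD, Arr2 and chp) summed to 58748 to 78986 CPM at day 10. At day 40 they summed to 78909 to 104654 CPM, and none of the 6 passed the age test. The study states that Arr2, inaD and trp are also expressed in the auditory organ, so the sum is not specific to R1 to R6. Of 4 inner photoreceptor, 5 glial, 4 pigment and cone cell and 3 hemocyte markers, nrv2 and Crys were lower with age, and both are among the 132 genes. Of the markers of muscle, fat body and mechanosensory neurons, Mlc2, Yp1 and nompB rose and Rfx fell, and Fbp1 and Yp2 were at 0 in at least 1 library. Summed muscle markers were at 175 to 450 CPM at day 10 and 495 to 688 CPM at day 40. Pairs that overlapped no annotated feature, called the no-feature ratio below, numbered 42.4 to 56.4 per 100 gene counts at day 40 and 60.7 to 112 per 100 at the other ages. The part of these differences in the results below was not tested beyond the slopes given for the no-feature ratio and for depth. In bulk nuclei, fewer cells of a type and less RNA per cell cannot be told apart.

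The median of the 132 genes stood 0.36 log2 units below day 10 at day 20, and at -0.45, -0.60 and -0.77 at days 25, 30 and 40. The other 5659 genes with a mean CPM of at least 10 had a median of -0.04 at day 40. The first interval held the largest share of the fall. The limits of the rule are measured from day 10 and favour genes with a high day 10 mean, so that part of this step is fixed by the choice of genes. Between days 10 and 20 the median step was -0.36, and it was the largest of the 4 steps in 81 genes. The steps from day 20 to 25 and from 25 to 30 had medians of -0.11 and -0.13 and were the largest in 9 and 10 genes. From day 30 to 40 the median step was -0.17, the largest in 32 genes. Per day the 4 median steps were -0.036, -0.021, -0.026 and -0.017, since the intervals were of unequal length. By day 20 the median gene had made 43.9% of its fall, and by day 30 it had made 78.4%.

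Library by library, the median of the 132 genes against the day 10 mean was -0.01, 0.16 and -0.18 in the day 10 libraries, and -0.59, -0.27 and -0.22 at day 20. It was -0.49, -0.57 and -0.35 at day 25, -0.47 and -0.72 at day 30, and -0.63, -0.74 and -0.96 at day 40. The libraries overlapped between successive ages: day 20 replicate 1 lay below all 3 day 25 libraries, and day 40 replicate 3 lay furthest down. Without day 40 replicate 3, all 132 genes remained below day 10, 85 kept the day 40 limit and the median at day 40 was -0.67. The remaining libraries are among those the rule used, so these values partly follow from the choice of genes. The discarded day 30 library, which the rule did not use, had 126 of the 132 genes below the day 10 mean (95.5%, against 59.5% of the other genes) with a median of -0.62. The rule favours genes with a high day 10 mean, so that part of this share is fixed by the choice of genes.

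**Figure D1:**
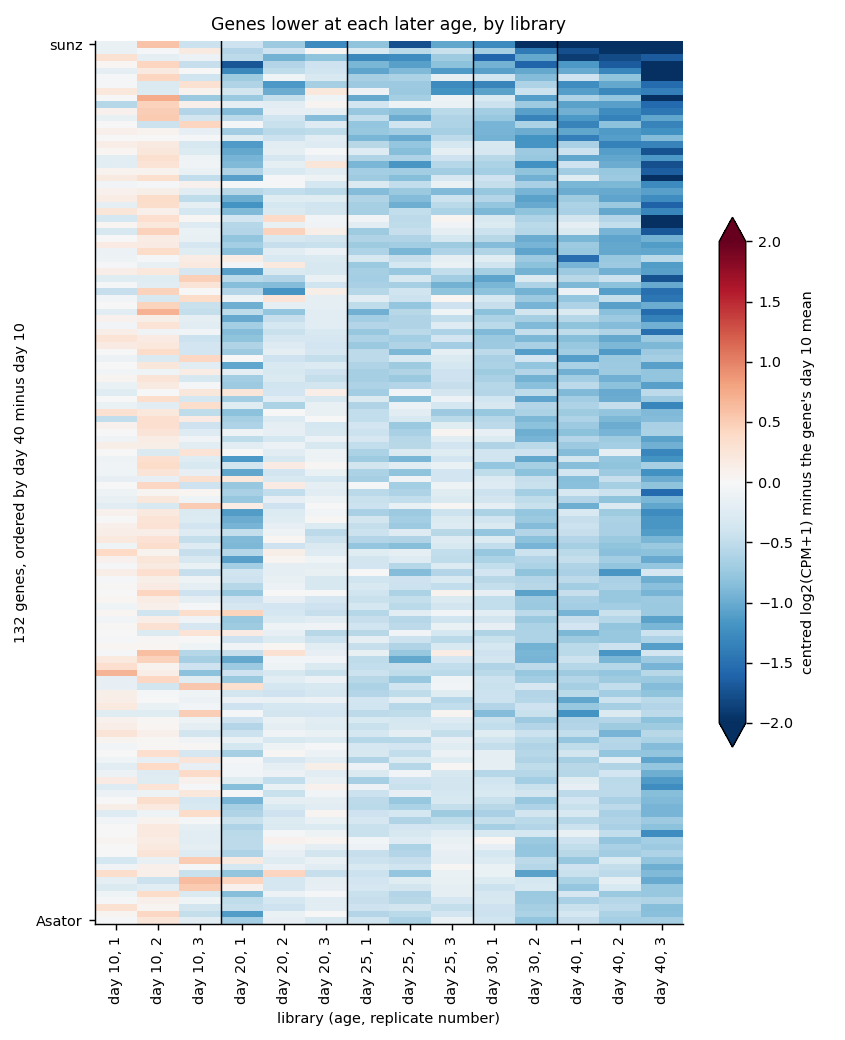
Heat map of the 132 genes (rows, ordered by day 40 minus day 10) in the 14 libraries (columns, grouped by age). Colour gives centred log2(CPM+1) minus the gene's day 10 mean, with blue for lower values and the scale cut at -2 and 2. Day 20 replicate 1 and day 40 replicate 3 are the darkest columns of their ages, with medians of -0.59 and -0.96.

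The age test, an edgeR quasi-likelihood test of a quadratic course over age, called 367 of 10678 genes lower with age, which is 3.44% of the genes tested. It called 80 of the 132 (60.6%), and since the rule used the same contrast nothing is read from that count. On the centred scale every day 40 library lay below every day 10 library in 114 of the 132 genes (86.4%), against 15.5% of the other genes with a mean CPM of at least 10, which likewise follows from the rule. Overlaps stated below for single genes are in CPM. Just inside the level limit were beat-Ib (10.0 CPM), lncRNA:CR44831 (10.6 CPM) and mRpL48 (10.7 CPM), and just outside it Oct-TyrR (9.03 CPM), TwdlE (8.40 CPM) and B-H1 (8.13 CPM). At the day 30 limit gprs, Ddc and Klp98A lay inside at -0.31, -0.32 and -0.33, and CG43066 and lncRNA:CR43900 outside at -0.29 and -0.15. At the day 40 limit Asator, FER and tinc were inside at -0.60, and Saf-B, CG1965 and CG11601 outside at -0.60, -0.59 and -0.59.

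Genes of the synapse and of neuronal excitability form the group that is easiest to read by function. Of 38 tested genes on a list of synapse and transmitter genes, 5 met the rule (Syt1, Sap47, Nlg2, Nlg4 and Frq1), and among the 33 that did not, 7 fell in the age test and 0 rose. At an unadjusted p under 0.05 these edgeR counts were 14 and 1, and DESeq2 called 12 lower and 0 higher. Over all genes tested 11.7% were lower and 12.4% higher at the unadjusted p, and DESeq2 called 7.15% lower and 6.76% higher. Only the 5791 genes with a mean CPM of at least 10 could meet the rule, and 132 of them did. How many genes of the list reached that level was not counted. Several genes on the lists, here Sap47, Hdc, Ace and Csp, had been named by the study as lower with age from these same libraries. The counts on the lists are therefore no independent evidence. A gene is said to fall or rise here by its fitted value at day 40 against day 10. Syt1, the calcium sensor of vesicle release (FBgn0004242, chromosome arm 2L, 2772327 to 2799979, BDGP6.54), stood at 2935, 3287 and 2705 CPM at day 10, 2147, 2497 and 2336 at day 20, 2057, 2037 and 2375 at day 25, 2146 and 1909 at day 30 and 2029, 1798 and 1838 at day 40. Each later library was below the 3 day 10 libraries, and the day 20 and day 40 libraries did not overlap either. The fitted log2 difference between days 40 and 10 was -0.77 ± 0.15 (edgeR, ± SE), which is a description here, and -0.38 with the no-feature ratio as a covariate. That fit was added after the data were seen, and its value follows below where the difference of one of the 132 genes is given and moves by more than 1.5 times or in sign.

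Sap47, which encodes a synapse-associated protein of axon terminals, went through 1049.9, 1094 and 1081 CPM at day 10, 943, 987 and 926 at day 20, 871, 883 and 941 at day 25, 868 and 807 at day 30 and 759.9, 753 and 697 at day 40, a log2 difference of -0.66 ± 0.12. Its replicates spread little, and days 10, 20 and 40 did not overlap. The neuroligin genes Nlg2 and Nlg4, whose products are postsynaptic adhesion proteins, differed by -0.60 ± 0.16 and -0.62 ± 0.18. Nlg4 was at 81.4, 79.1 and 90.4 CPM at day 10 and 63.7, 73.2 and 41.1 at day 40, without overlap, although its day 20 values of 92.9, 88.3 and 77.6 reached above those of day 10. Frq1, a frequenin that binds calcium and modulates release, was at 58.0, 41.4 and 86.8 CPM at day 10 and 34.0, 51.6 and 38.3 at day 40 (-0.68 ± 0.25, -1.35 with the ratio). Its highest library was day 20 replicate 1 at 94.3 CPM, and the means of days 10 and 40, 62.1 and 41.3 CPM, lay closer together than the SD of day 10, 23.0 CPM.

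The synapse genes outside the rule that fell in the age test (edgeR, adjusted over all genes tested) included Hdc, the histidine decarboxylase that makes histamine (log2 difference -0.62, adjusted p = 0.00368), and the acetylcholinesterase gene Ace (-0.54, adjusted p = 0.00589). The complexin gene cpx differed by -0.52 (adjusted p = 0.0138), t, whose product tan recovers histamine from its conjugate, by -0.79 (adjusted p = 0.0318), and the cysteine string protein gene Csp by -0.49 (adjusted p = 0.0196). EndoA, for endophilin, and Snap25, a SNARE gene, differed by -0.47 and -0.40 (adjusted p = 0.0389 and 0.0494). The median of the 38 genes was -0.46, against 0.01 over all genes tested.

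Of 39 tested genes on the list of ion channels, pumps and gap junctions, shakB, eag, kcc and nrv2 met the rule. shakB, an innexin of electrical synapses, was at 288, 278 and 339 CPM at day 10, 296, 229 and 282 at day 20, 175, 172 and 223 at day 25, 177 and 161 at day 30 and 128, 165 and 176 at day 40 (-1.05 ± 0.15). Its main drop lay between days 20 and 25, where the libraries did not overlap. The potassium channel gene eag (FBgn0000535, X chromosome, 14955477 to 15009989, BDGP6.54) was at 1981, 2257 and 1518 CPM at day 10, 1122, 1649 and 1754 at day 20, 1373, 1194 and 1489 at day 25, 1436 and 1117 at day 30 and 1278, 1083 and 859.6 at day 40 (-0.97 ± 0.21, -0.11 with the ratio). Day 10 replicate 3 and day 20 replicate 1 were its low libraries, and day 20 replicate 1 lay among the day 40 values.

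The potassium-chloride cotransporter gene kcc was at 479.6, 439 and 466 CPM at day 10 and 342, 334 and 301 at day 40 (-0.62 ± 0.12, -0.37 with the ratio), and nrv2, a beta subunit of the sodium pump that is also used as a glial marker, at 169, 168 and 206 CPM and 122, 126 and 126 CPM (-0.64 ± 0.12). Neither overlapped between the 2 ages. Among the 35 genes of the list outside the rule, 7 fell and 1 rose in the age test. Sh, a Shaker potassium channel, had the largest of these falls at -1.33 (adjusted p = 0.00267), followed by nrv3, another pump beta subunit, at -0.69 (adjusted p = 0.0214), the pump's alpha subunit Atpalpha at -0.64 (adjusted p = 0.00523) and the innexin Inx2 at -0.61 (adjusted p = 0.00767). The inward rectifier Irk1 rose by 1.01 (adjusted p = 0.0126).

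Further genes of neurotransmission met the rule without standing on a list, and they were picked out after their values were seen. Several serve transmitters other than the histamine of outer photoreceptors. The markers examined included none for neurons of the brain, so which cells the RNA of these genes came from was not tested. The study holds that a part of the purified nuclei most likely came from mechanosensory neurons. Their falls are therefore those of the preparation and are not assigned to photoreceptors. Gad1, which makes the transmitter GABA (FBgn0004516, chromosome arm 3L, 4074077 to 4088744, BDGP6.54), was at 102, 73.7 and 168 CPM at day 10, 123, 81.8 and 98.5 at day 20, 69.5, 94.3 and 75.2 at day 25, 64.4 and 86.1 at day 30 and 47.0, 72.4 and 45.3 at day 40 (-1.16 ± 0.22). Its day 10 values spanned a more than 2-fold range, with replicate 3 the highest, and still lay above the day 40 values. Without day 10 replicate 3 its difference was -0.86.

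Ddc, the decarboxylase of dopamine and serotonin synthesis, was at 74.6, 68.1 and 149 CPM at day 10, 118, 70.2 and 100.03 at day 20, 74.4, 95.0 and 98.8 at day 25, 91.2 and 82.6 at day 30 and 51.3, 88.8 and 47.3 at day 40 (-0.74 ± 0.25, -1.29 with the ratio). Days 10 and 40 overlapped, and without day 10 replicate 3 the difference was -0.38. The dopamine receptor gene Dop2R was at 195, 196 and 411 CPM at day 10 and 163, 239.6 and 159 at day 40 (-0.61 ± 0.21, -1.23 with the ratio). The nicotinic receptor subunits nAChRalpha3 and nAChRalpha4 had means of 43.6 ± 21.2 and 118 ± 29.4 CPM at day 10 and of 28.5 ± 5.36 and 68.6 ± 12.9 CPM at day 40 (SD, n = 3). In Dop2R and nAChRalpha3, day 10 replicate 3 stood far above the other day 10 libraries, which overlapped with the day 40 values. The log2 differences of nAChRalpha3 and nAChRalpha4 were -0.71 ± 0.26 and -0.89 ± 0.18, and that of nAChRalpha3 was -1.36 with the ratio as covariate. Teh2 and Teh3, neighbouring genes for auxiliary subunits of the sodium channel, differed by -0.58 ± 0.15 and -0.60 ± 0.18, and by -0.23 and -0.012 with the ratio as covariate.

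**Figure D2:**
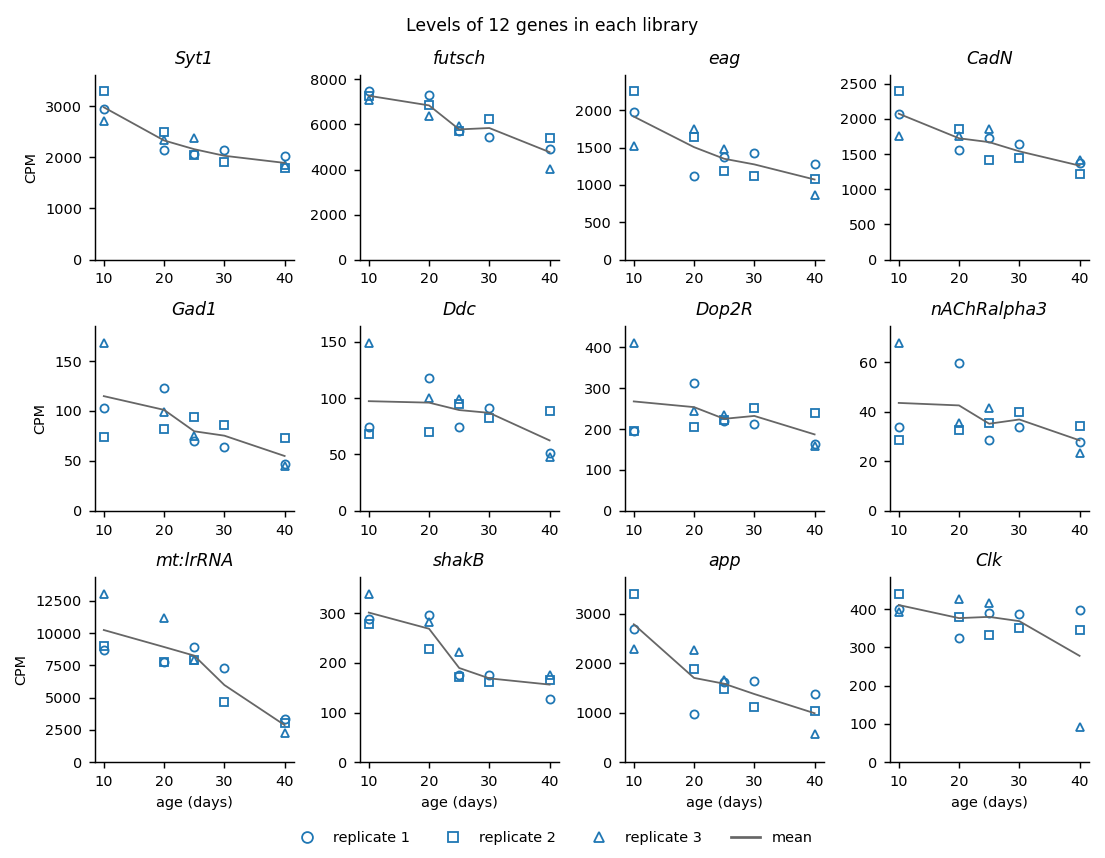
CPM of 12 of the genes in each of the 14 libraries against age in days, with a marker shape for each replicate number and a line through the age means. Syt1, futsch and shakB keep days 10 and 40 apart, while Ddc overlaps between them through its day 10 spread of 68.1 to 149 CPM, and Clk is low in day 40 replicate 3 (91.4 CPM) alone.

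Of 75 tested genes for cell adhesion and recognition, 7 met the rule, and 2 fell and 2 rose among the other 68. The most abundant was Fas1, a fasciclin of axons, at 2556, 2469 and 2176 CPM at day 10, 1750.0, 1789.7 and 1915 at day 20, 1608, 1705 and 1555 at day 25, 1501 and 1549 at day 30 and 1606, 1391 and 1182 at day 40 (-0.91 ± 0.14, -0.49 with the ratio). Day 10 lay above all the later libraries. CadN, the N-cadherin with which photoreceptor axons recognise their targets, was at 2066, 2392 and 1764 CPM at day 10, 1556, 1856 and 1761 at day 20, 1736, 1415 and 1859 at day 25, 1637 and 1441 at day 30 and 1375, 1221 and 1412 at day 40 (-0.75 ± 0.17, -0.30 with the ratio). Day 10 replicate 3 lay within the range of days 20 and 25. The immunoglobulin genes beat-Ib, DIP-epsilon, dpr10 and side-VI had low levels, with day 10 means of 11.5 to 88.6 CPM, and each had its highest day 10 value in replicate 3. With the ratio as covariate the differences of beat-Ib and dpr10 went from -0.83 ± 0.27 to -1.48 and from -0.66 ± 0.29 to -1.38. kirre differed by -0.62 ± 0.16, and by -0.27 with the ratio as covariate. The E-cadherin gene shg and trol, the perlecan of basement membranes, also met the rule. shg overlapped between days 10 and 40 and differed by -0.34 without day 40 replicate 3, on the centred scale. Its edgeR difference was -0.54 ± 0.24, and -0.13 with the ratio as covariate.

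Cytoskeletal genes included some of the most abundant of the 132, again named without a list of their own. futsch, the microtubule-associated protein of fly axons (FBgn0259108, X chromosome, 1409069 to 1453686, BDGP6.54), was at 7473, 7278 and 7080.5 CPM at day 10, 7299.6, 6879 and 6367 at day 20, 5699, 5696 and 5951 at day 25, 5462 and 6224 at day 30 and 4900.4, 5407 and 4006 at day 40 (-0.73 ± 0.13, -0.48 with the ratio). Day 10 and day 20 overlapped, and both lay above every later library. The alpha-tubulin gene alphaTub84B was at 2181, 3384 and 2266 CPM at day 10 and 1284, 1183 and 1336 at day 40 (-1.16 ± 0.21). The beta-heavy spectrin kst, the supervillin Svil and the dynein light chain ctp differed by -0.65 ± 0.17, -0.57 ± 0.15 and -0.98 ± 0.11. With the ratio as covariate kst and Svil were close to 0, at -0.008 and -0.081, and ctp was at -0.83. ctp was the tightest of these, at 370.3, 366 and 361 CPM at day 10 and 205, 215 and 184 at day 40.

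The 15 largest falls on the centred scale ran from -2.29 to -1.11. The first was sunz (FBgn0037462, chromosome arm 3R, 6630151 to 6631184, BDGP6.54), at 1538, 2444 and 1511 CPM at day 10, 1566, 1107 and 814 at day 20, 1126, 607 and 924 at day 25, 841 and 411 at day 30 and 466, 330.5 and 439 at day 40 (-2.27 ± 0.31). Its replicates spread widely at days 10 to 30, but no day 40 library reached the lowest day 10 library. Crys, a lens protein of the cornea and hence a pigment and cone cell marker, went from 42.4, 28.8 and 37.8 CPM to 9.99, 11.7 and 11.5 CPM (-1.82 ± 0.22). The other 3 pigment and cone cell markers (w, ct and Pdh) did not pass the age test. app, a palmitoyltransferase, was at 2682, 3394 and 2277 CPM at day 10 and 1368, 1027 and 572 at day 40 (-1.63 ± 0.31, -0.58 with the ratio), with day 20 replicate 1 at 976 CPM among the day 40 values. CG13937 and CG4839 differed by -1.45 ± 0.28 and -1.23 ± 0.23, and CG4839 by -0.30 with the ratio as covariate. Nplp3, a neuropeptide-like precursor, differed by -1.28 ± 0.25, and Lsp1beta, a storage protein of the larval hemolymph, by -1.26 ± 0.30. Obp69a, an odorant-binding protein, differed by -1.20 ± 0.43, and by -0.70 on the centred scale without day 40 replicate 3, against -1.25 with it. With the ratio as covariate its difference turned to 0.26. Beyond these 15 the genes lay between -1.11 and -0.60. The most abundant of all 132 by mean CPM was the noncoding lncRNA:CR42862, at 10742, 13234 and 10110.0 CPM at day 10 and 7753, 6726 and 7309.9 at day 40 (-0.76 ± 0.21, -0.31 with the ratio).

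Both mitochondrial ribosomal RNAs met the rule. mt:lrRNA, of the large subunit, was at 8709, 8987 and 13026 CPM at day 10, 7797, 7789 and 11192 at day 20, 8956, 7926 and 7887 at day 25, 7268 and 4693 at day 30 and 3318, 3022 and 2289.8 at day 40 (-1.93 ± 0.20). The drop came after day 25, and the 3 day 40 libraries were the lowest of the 14. mt:srRNA, of the small subunit, was at 1111, 2215 and 2132 CPM at day 10 and 918, 972 and 636 at day 40 (-1.22 ± 0.21). The libraries had been depleted of ribosomal sequence. Whether that depletion, or the removal of mitochondrial RNA by the purification, was equal at all ages was not tested. Of the 16 other mitochondrially encoded genes tested, 1 fell (mt:ND6, -0.43, adjusted p = 0.0215), and 4 were lower at an unadjusted p under 0.05, where 11.7% of all genes were. Of 69 nuclear genes of the respiratory chain 3 fell, 2 rose (by 0.10 and 0.04) and none met the rule. Cytosolic ribosomal protein genes moved otherwise, since 42 of 79 rose in the age test and 1 was lower at an unadjusted p under 0.05.

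Among 35 transcription factors of retina and neurons, Mef2, ey and pan met the rule. Mef2 was at 241, 266 and 289 CPM at day 10 and 213, 210.4 and 135 at day 40 (-0.63 ± 0.16, -0.32 with the ratio). ey, the fly Pax6 gene, was at 32.6, 49.7 and 41.2 CPM and 30.4, 31.4 and 25.1 CPM (-0.63 ± 0.19), and pan, the TCF of Wnt signalling, at 1119, 1226 and 1395 CPM and 1035, 1059 and 679 CPM (-0.55 ± 0.16, -0.35 with the ratio). None of the 3 overlapped between days 10 and 40. Of the other 32 factors 3 fell and 1 rose in the age test. Clk, a transcription factor of the circadian clock that stands on no list here, was at 401, 439 and 392 CPM at day 10, 323, 380.4 and 426 at day 20, 391, 333 and 416 at day 25, 386 and 351 at day 30 and 397, 345 and 91.4 at day 40. Its centred difference of -0.98 was -0.34 without day 40 replicate 3, and its edgeR difference of -0.70 ± 0.32 turned to 0.069 with the ratio as covariate. CG32371, which lies inside Clk on the same strand, shared that library's low value, at 4.46 CPM against 31.4 and 25.1 CPM in the other day 40 libraries, and went from -1.38 to -0.61 without it. Its edgeR difference went from -1.07 ± 0.42 to -0.015 with the ratio as covariate.

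No gene on the lists of phototransduction (24 tested), rhabdomere structure (16), splicing and RNA binding (43) or glycolysis and central metabolism (27) met the rule. In the age test 3 phototransduction genes fell and 1 rose, 1 rhabdomere gene fell and 2 rose, 5 splicing genes fell, and 1 metabolic gene fell and 1 rose. The counts lower were larger at looser settings. At an unadjusted p under 0.05, 12 phototransduction and 15 splicing genes were lower, and DESeq2 called 8 and 12. On the list of Rh1 maturation, alpha-Man-Ia, a mannosidase that trims the glycan of Rh1, met the rule at 220.3, 235 and 228 CPM at day 10 and 155, 176 and 136 at day 40 (-0.67 ± 0.13, -0.41 with the ratio). On the list of kinases, Pkc53E, a protein kinase C of the eye and brain, did so with 939, 984 and 868 CPM at day 10 and 835, 673 and 417 CPM at day 40 (-0.66 ± 0.23, 0.087 with the ratio). Of the other genes on these lists, 2 of 12 fell and 1 rose, and 2 of 28 fell. Over the 13 lists, 23 of 505 tested genes met the rule. Over all genes 132 did, of the 5791 with a mean CPM of at least 10 that could meet it. The 505 were not limited to that level, so the shares are not on the same footing.

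Gene type and length were not used by the rule. Of the 132, 124 were annotated as protein coding (93.9%, against 95.1% of the other genes with a mean CPM of at least 10). A further 3 were annotated as noncoding RNA and 2 as rRNA. The median gene spanned 10558 bp, introns included, against 4442 bp in the other genes, and 23 genes (17.4%, against 4.31%) spanned more than 50 kb. The longest were Myo81F at 1965857 bp (chromosome arm 3R, 567076 to 2532932, BDGP6.54), kirre at 394149 bp (X chromosome, 2740384 to 3134532, BDGP6.54), shakB at 165980 bp (X chromosome, 20761071 to 20927050, BDGP6.54) and CadN at 131288 bp (chromosome arm 2L, 17647053 to 17778340, BDGP6.54). Introns made up a median of 60.6% of the span, against 27.4%. Exons totalled a median of 3816 bp, against 2895 bp. Abundance, which the rule used through its minimum of 10 CPM, was also higher, with a median of 151 CPM against 42.1 CPM in the other genes past that minimum. Abundance and span were not separated here.

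**Figure D3:**
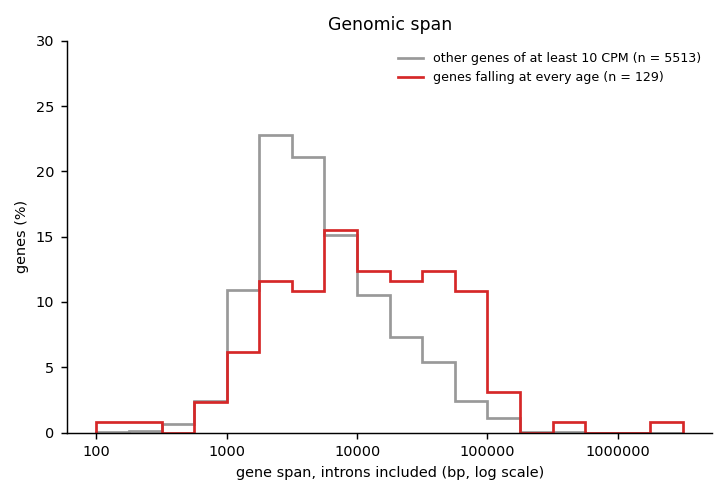
Share of genes (percent) in bins of genomic span, introns included, on a log scale in bp, for the 129 genes of the rule with a position (red) and 5513 other genes with a mean CPM of at least 10 (grey). The red outline lies to the right, with a median of 10558 bp against 4442 bp.

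By chromosome arm (Ensembl annotation of BDGP6.54), 30 of the genes were on 2L, 27 on 3L, 26 on X, 22 on 3R, 16 on 2R and 6 on chromosome 4. Chromosome 4, the smallest, held 82 genes at this level, so 7.32% of them met the rule, against 1.45% to 3.00% on the larger arms. The 6 were pho, a Polycomb-group DNA-binding protein, ey, pan, Asator, a tau-tubulin kinase, Slip1 and CG11155. pho was at 176, 190.1 and 193 CPM at day 10, 125, 153 and 157 at day 20, 135, 140.4 and 156 at day 25, 144 and 116 at day 30 and 109.7, 106 and 103 at day 40 (-0.92 ± 0.14). Its day 10 libraries were above all others. The 76 chromosome 4 genes outside the rule had a median day 40 difference of -0.27, against -0.02 to -0.05 on the other large arms. Of all 82, 69 were below 0, and the share below 0 on the other arms was not counted. In the age test 15 of the 82 were lower and 3 higher, against 367 lower and 525 higher of all 10678 genes tested. The 82 have a mean CPM of at least 10, while the 10678 include genes below it. The share called among all genes at that level was not counted, so these counts are not on the same footing. These counts of the 82 include the 6 genes, which the rule chose by their fall.

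There were 10 pairs of the 132 genes within 5000 bp of each other, and 4 of the pairs overlapped. Such pairs were not counted among the other genes, so nothing is read from their number. Pkc53E and CG43789, Teh2 and Teh3, and Clk and CG32371 overlapped on the same strand, where pairs that fit both genes are left uncounted, and Syx4 and kirre on opposite strands. The counts were made with strand, so the latter are separable.

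Libraries of the same age differed in their no-feature ratio, and a slope fitted within ages does not use the age means on which the genes were chosen. An edgeR quasi-likelihood test with 1 mean per age and a slope on the log2 no-feature ratio called 89 of 10678 genes higher (0.833%) and 54 lower (0.506%) with the ratio. The 10678 include genes with a mean below 10 CPM, and the share called among the other genes past that level was not counted. Of the 132 genes, 7 were higher (5.3%) and 0 lower. They were CG4839 (log2 slope per doubling of the ratio 1.16 ± 0.24 SE, adjusted p = 0.0257), eag (1.08 ± 0.23, adjusted p = 0.0281), the tyrosine kinase gene FER (1.11 ± 0.25, adjusted p = 0.0379), CG44195 (1.68 ± 0.39, adjusted p = 0.0424) and mir-4968 (1.28 ± 0.30, adjusted p = 0.0430). Kr-h1, a zinc finger factor of the juvenile hormone response (1.00 ± 0.23, adjusted p = 0.0435), and kst (0.81 ± 0.20, adjusted p = 0.0495) completed them. The value of mir-4968 is that of reads over its annotated gene and not of the mature miRNA. The count of 7 depended on single libraries: it was 0 without day 10 replicate 2, day 20 replicate 1, day 20 replicate 2 or day 40 replicate 1, and 21 without day 10 replicate 3. The 0 lower likewise became 3 without day 40 replicate 2, beside 6 higher, and 8 without day 40 replicate 3, beside 14 higher. With depth as a second covariate 0 of the 132 were higher and 4 lower, and DESeq2 called 25 higher and 3 lower.

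Below the threshold the same direction was common. The slope was above 0 in 96 of the 132 (72.7%, against 46.2% of the other genes), with a median of 0.41 against -0.04. At an unadjusted p under 0.05, 52 genes were higher with the ratio (39.4%, against 8.96%) and 13 lower (9.85%, against 12.9%). These unadjusted sets were taken after the values were seen.

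Among the 52 were the abundant genes eag, app, kst, Svil, Syt1, CadN, Fas1, Pkc53E and Abl, a tyrosine kinase gene of axon growth, with a median of 234 CPM. The 13 were CG8861, Dop2R, Cyp313a1, a cytochrome P450 gene, NaCP60E, a gene of the voltage-gated sodium channel family, gprs, nAChRalpha3, Frq1, dpr10, Gad1, Trim9, Ddc, beat-Ib and Pvf3, which encodes a ligand of the PDGF and VEGF family, with a median of 44.1 CPM. Day 10 replicate 3 and day 20 replicate 1 had the lowest no-feature ratio of their ages, at 60.7 and 64.2 per 100 gene counts. In each of the 13, day 10 replicate 3 was the highest day 10 library and day 20 replicate 1 the highest day 20 library. Of the 52, 50 had their lowest day 10 value in day 10 replicate 3 and 49 their lowest day 20 value in day 20 replicate 1. These positions largely restate the choice of the sets by slope and are no further evidence.

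NaCP60E, one of the 13, was at 298, 332 and 653 CPM at day 10, 533, 348 and 398 at day 20, 327, 334 and 379 at day 25, 379.8 and 346 at day 30 and 264, 383 and 247 at day 40. Apart from day 10 replicate 3 and day 20 replicate 1 its libraries lay between 247 and 398 CPM, and days 10 and 40 overlapped. Its difference was -0.61 ± 0.21, and -1.20 with the ratio as covariate. The median of the 13 had made a step of -0.13 by day 20, and none had its largest step there. The 52 stood at -0.41 by day 20, and 41 had their largest step there. Both values contain the libraries on which the sets were chosen. By day 40 both sets were at similar medians, -0.79 for the 52 and -0.70 for the 13.

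**Figure D4:**
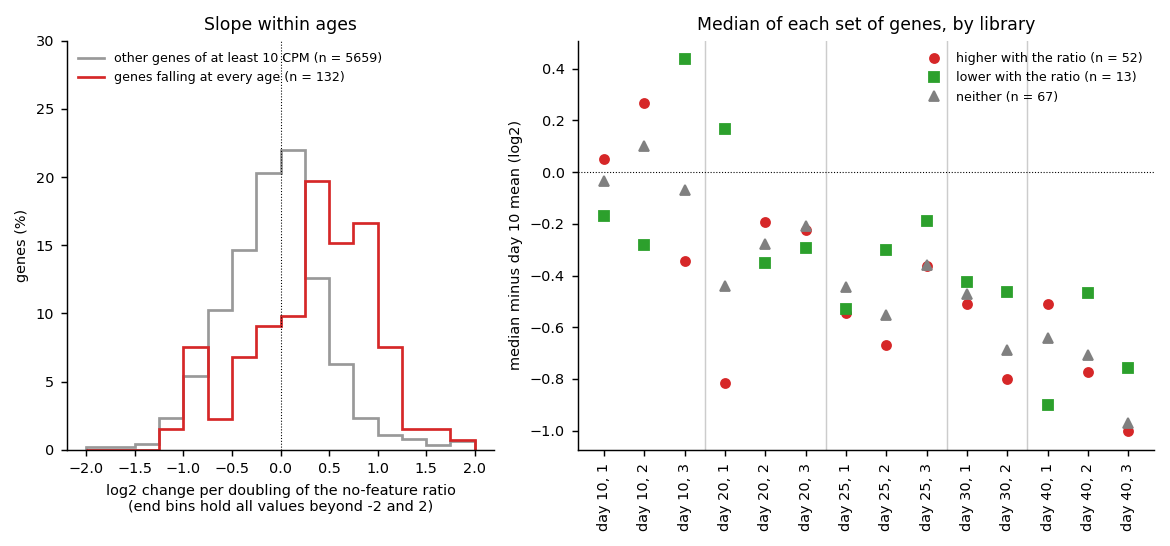
Left, share of genes (percent) by their log2 change per doubling of the no-feature ratio within ages, for the 132 genes (red, median 0.41) and 5659 other genes (grey, median -0.04). Right, median log2 level against the day 10 mean in each library for the 52 genes higher with the ratio at an unadjusted p under 0.05 (red circles), the 13 lower with it (green squares) and the other 67 (grey triangles), in which day 10 replicate 3 and day 20 replicate 1 separate the first 2 sets, as the choice by slope implies.

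Across the 14 libraries, the within-age deviation of the median of the 132 genes had the sign of the deviation of the log2 no-feature ratio in 11 (r = 0.79, a description over libraries that share their ages' means). The day 30 pair had nearly equal ratios, 111.6 and 111.9 per 100, and medians 0.13 log2 units above and below their mean. With the ratio as a covariate in the contrast of days 40 and 10, an alternative added after the data were seen, 116 of the 132 genes (87.9%, against 48.4% of the others) remained lower at day 40 and 16 turned higher. The rule chose genes by this contrast, so nothing is read from the share. The median difference was -0.41 in place of -0.72. The ratio is lowest at day 40, so that beyond this fit the 2 cannot be told apart.

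Depth gave no call of its own. The slope on the log2 total gene count within ages passed in 0 of 10678 genes (0.0%) in edgeR, with 655 genes at an unadjusted p under 0.05, and in 10 genes in DESeq2. None of the 132 passed in either. The slope was below 0 in 110 of them (83.3%, against 46.1% of the other genes). At an unadjusted p under 0.05, 16 were lower with depth (12.1%, against 2.44% of the other genes) and 1 higher (0.758%, against 3.5%). Day 40 replicate 3 was among the deepest libraries, with 18515000 gene counts, and held the lowest day 40 value in 90 of the 132 genes.

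How firmly a gene belongs to the set varied. When the rule was repeated with each library left out in turn, it kept between 78 and 177 genes. Leaving out day 30 replicate 2 retained the fewest of the 132, 60 (45.5%), and leaving out day 30 replicate 1 retained 70. Under all 14 omissions 6 genes were kept: Gad1, kek2, CG8034, CG6329, CG30089 and futsch. CG6329 had the narrowest replicates of these, at 649.8, 618 and 658 CPM at day 10, 459, 455 and 491 at day 20, 420.2, 456 and 429 at day 25, 385 and 399 at day 30 and 346, 344 and 297 at day 40 (-1.08 ± 0.11). A total of 37 genes were kept in at least 12 omissions, the median gene in 10 and the least stable in 5, among them FER.

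Removing the centring changed the set more than leaving out any 1 library. The median library value of log2(CPM+1) was 0.17 higher at day 40 than at day 10 and 0.25 higher at day 30, so the centring lowers the later ages by that much. Without centring 40 genes were kept, of which 34 were among the 132, and with TMM scaling in its place 92 were kept, of which 90 were among the 132. A pseudocount of 0.5 kept all 132 and 3 more.

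**Figure D5:**
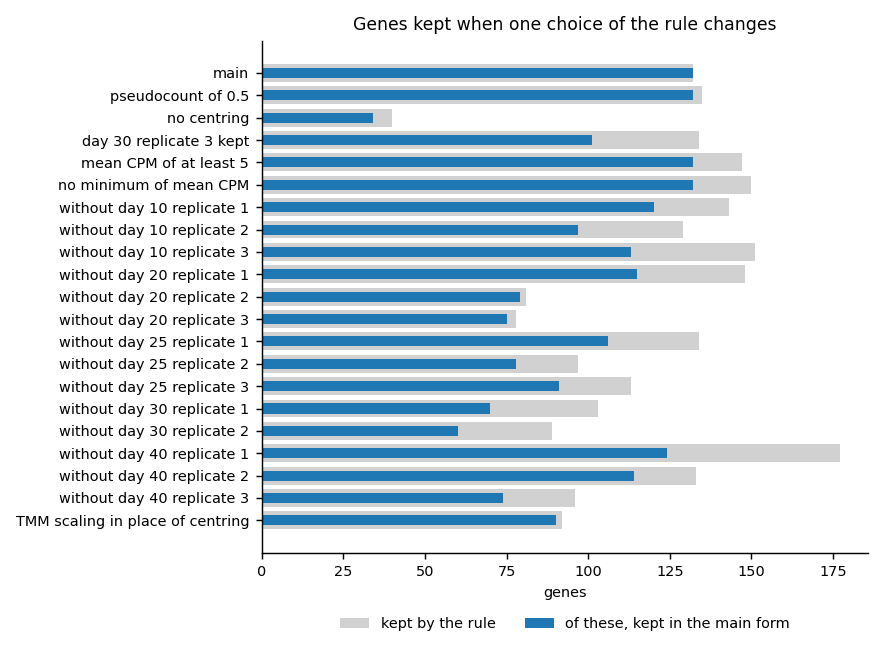
Number of genes kept by the rule (grey bars) and number of these among the 132 (blue bars) when 1 choice is changed, with the unchanged rule at the top. The bars are shortest without centring, at 40 and 34 genes.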

How the data were processed

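Nuclear RNA of affinity-purified photoreceptor nuclei was sequenced at 5 ages. Per the labels and the study's methods, the authors trimmed reads with Trimmomatic, mapped them to BDGP6 with TopHat and counted pairs per gene, with strand, by HTSeq. The authors deposited raw counts, and CPM of 7635 genes, which equals the filtered counts scaled to a common total of the same genes. The column names give each library's age. Replicate numbers in the text are those of the column names, and for numbers 1 and 2 only the age could be tied to a sample label.

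The rule was applied to the deposited CPM with a pseudocount of 1. Counts were tested with edgeR 4.0.16 (glmQLFit, TMM) in R 4.3.3, with Benjamini-Hochberg adjustment at 0.05 over 10678 genes, those above 1 CPM in 3 or more of the 14 libraries used. Differences between days 40 and 10 come from a fit with 1 mean per age. The age test's quoted log2 differences are its fitted values at day 40 minus day 10. HTSeq's summary lines stayed out of library sizes. Scripts were tested on simulated data. Alternatives were DESeq2 1.42.0 (its size factors and its test), no filter on low counts, a replicate block, other pseudocounts, levels and scalings of the rule, and each library left out.

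Named genes were the 15 largest falls, the 10 most abundant, genes on the 13 lists, those nearest each limit and those past the slope tests. Others are said to have been picked later. The genes and lists were chosen with earlier results of these data known. Positions came from Ensembl (BDGP6.54), and the names of Aac11, trol and Fas1, which it lacks, from the study. No promoter or protein sequence was analysed here. Library numbers, 3 an age and 2 at day 30, limit the precision, and p-values measure the spread between these libraries.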

Additional observations from a re-analysis of the deposited data

How the results depend on the processing

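The rule kept 132 genes, 40 without centring, and 78 to 177 with each library left out. The age test called 367 genes lower with age, 764 in DESeq2, 601 with no filter on low counts, 205 with the no-feature ratio as covariate (added after the data were seen), and 167 to 496 with each library left out, fewest without day 10 replicate 2. The no-feature slope within ages called 143 genes in all, 529 in DESeq2, 697 with no filter, and 42 (without day 20 replicate 1) to 575 (without day 40 replicate 3) with each library left out. The depth slope called 0 genes, 10 in DESeq2, 22 with no filter, and 0 to 1 with each library left out. With the no-feature ratio as covariate the day 40 minus day 10 difference turned positive in 16 of the 132 genes, among them Clk (0.069), Abl (0.075) and 7 of the 50 genes named by the rule for named genes: FER (0.30), Pkc53E (0.087), Klp98A (0.039), Obp69a (0.26), mir-4968 (0.37), CG44195 (0.37) and Kr-h1 (0.081), and 31 others of the 50 moved by more than 1 replicate SD. Apart from that covariate, none of the 50 changed direction under the alternatives run, and 4 moved by more than 1 SD without day 10 replicate 3, at -0.38 (Ddc), -0.86 (Gad1), -0.19 (gprs) and -0.28 (dpr10). The causes were not tested beyond what each alternative's own construction shows.

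The replicate numbers did not pair the libraries. Deviations from the age means correlated with a median of -0.03 over 26 pairs of the same number (-0.16 to 0.13) and 0.00 over 52 pairs of different number. With the replicate number as a block, the age test called 267 genes lower, the no-feature slope 52 and the depth slope 0. The slopes within ages rest on 2 to 3 libraries an age.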
